A study of Mus musculus with 10 samples.

Results

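The enzymes and subunits described here make superoxide or hydrogen peroxide, or help to, and their transcripts were measured in mouse preadipocytes, the fibroblast-like precursors of fat cells. The 7 genes, out of 32903 genes with an assigned transcript, were Xdh, Aox1, Nox4, Cyba, Poldip2, Maoa and Maob. They were chosen by name for what their products do, with the comparison of BPS with DMSO in these same libraries already in view. Their values in that comparison are therefore given as a description, with no test, and they support nothing beyond themselves. All 7 passed the filter on low counts, which kept 14597 genes.

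The cells were preadipocytes of the fat depot labelled iSAT, from male mice labelled WT C57 BL6. The vehicle alone, DMSO, was given in 5 libraries, and BPS, dissolved in DMSO to 2.5 µM, was given in the other 5, so every library carried the vehicle. BPS is bisphenol S, a structural analogue of the plasticiser bisphenol A, and the series title asks about bisphenols, reactive oxygen species and fat cell formation. The exposure time and the number of animals or dishes behind the replicates were not given in the sources used here, so the spread between libraries may be technical.

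These oxidases pass electrons from a substrate to molecular oxygen and release superoxide or hydrogen peroxide. Xanthine oxidoreductase and aldehyde oxidase are relatives that share a molybdenum cofactor, iron-sulfur clusters and FAD. NADPH oxidases move electrons across a membrane from NADPH, and monoamine oxidases, which sit on the outer mitochondrial membrane, oxidise amines and give off hydrogen peroxide and an aldehyde.

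The libraries held between 37920689 and 42717227 estimated counts each, and 93.02 to 93.22% of them were assigned to genes. The numbers in the library codes run through the DMSO libraries first and the BPS libraries after them, so an effect tied to that order and the treatment cannot be told apart. The cells carried fibroblast and preadipocyte transcripts: all 10 markers of that list were tested, with Col1a1 at 21821.2 CPM (CPM is the count per 1000000 assigned counts) and Pdgfra at 903.8 CPM in DMSO. The lowest markers of the list were Pi16 at 2.02, Dpp4 at 2.45 and Zfp423 at 9.91 CPM in DMSO. Of the 10, 1 passed the test (10%, against 4.88% of all genes tested): the surface sialomucin Cd34 rose from 45.2 ± 1.56 to 54.8 ± 1.88 CPM (log2 fold change 0.28, edgeR adjusted p = 0.000428). Its part in the results that follow was not tested. Of the 8 adipocyte markers, 7 were at the floor and were not tested. Among these, Adipoq had 0 to 3 counts per library, Plin1 had 1 to 5 and Lep had 0. The exception was Lipe, which averaged 4.37 CPM with the vehicle alone, against 4.21 CPM with BPS (edgeR adjusted p = 0.85). The 6 tested of the 8 macrophage markers summed to 10.3 to 16.5 CPM in DMSO and 11.0 to 19.5 CPM in BPS. Of the other 2, Csf1r had 0 counts and Ptprc had 3 to 18 counts per library. The 8 endothelial markers, all tested, summed to 25.7 to 31.9 CPM in DMSO and 25.3 to 32.4 CPM in BPS.

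Xdh and Aox1 are paralogs, as are Maoa and Maob, and reads that match both genes of a pair could be divided between them by the counting program. The longest stretch that each pair shares in its coding sequence is shown here in capitals, with 15 flanking bases on each side in lower case, because its length bears on whether the counts of a pair can be separated. The sequences are 5′ to 3′ on the coding strand, from GENCODE transcripts of GRCm38, and positions are counted from the first base of the start codon. The first pair is Xdh on chromosome 17 (coding bases 295 to 341) and Aox1 on chromosome 1 (289 to 335), and the second is Maoa (1150 to 1214) and Maob (1123 to 1187), which neighbour each other on chromosome X.
Xdh: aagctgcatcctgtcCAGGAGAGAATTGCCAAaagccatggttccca
Aox1: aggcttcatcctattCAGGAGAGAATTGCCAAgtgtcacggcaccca
Maoa: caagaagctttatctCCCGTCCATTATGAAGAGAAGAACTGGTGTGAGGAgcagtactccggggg
Maob: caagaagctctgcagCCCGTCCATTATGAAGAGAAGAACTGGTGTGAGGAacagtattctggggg

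Xdh and Aox1 shared 17 bases at most, and 59.5% of 3950 aligned coding bases were identical. Maoa and Maob shared 35 bases at most, and 71.3% of 1548 aligned coding bases were identical. Each transcript was also cut into all its windows of 31 bases, and every window was looked up in the transcripts of the other genes. None of the 4570 windows of Xdh, the 4375 of Aox1, the 3723 of Nox4 or the 714 of Cyba occurred in another gene. One window of the 2024 of Poldip2 did, and 5 of the 2381 of Maob did, all 5 in Maoa. Maoa had 284 of 4137 windows (6.865%) in other genes, among them Gm26691, Olfr344 and Vmn1r227, so its count is the one most open to shared reads.

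Xdh encodes xanthine oxidoreductase, which oxidises hypoxanthine to xanthine and xanthine to uric acid and, in its oxidase form, hands electrons to oxygen. Its level in DMSO replicates 1 to 5 was 132.2, 126.7, 128.0, 130.7 and 129.1 CPM. In BPS replicates 1 to 5 it was 99.1, 95.0, 96.0, 98.4 and 97.9 CPM. All 5 BPS libraries lay below all 5 DMSO libraries, and the gap between the groups, from 99.1 to 126.7 CPM, was wider than the range within either group. The mean was 129.3 ± 2.2 CPM under DMSO and 97.3 ± 1.73 CPM under BPS (SD, n = 5 each), a change of -24.8%. The log2 fold change was -0.41 (SE 0.02), with a 95% interval from -0.45 to -0.37. Leaving out any 1 library gave -0.418 to -0.402. In a culture read as bulk RNA, fewer cells of a type and less RNA per cell cannot be told apart, here and for every gene that follows.

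**Figure D1:**
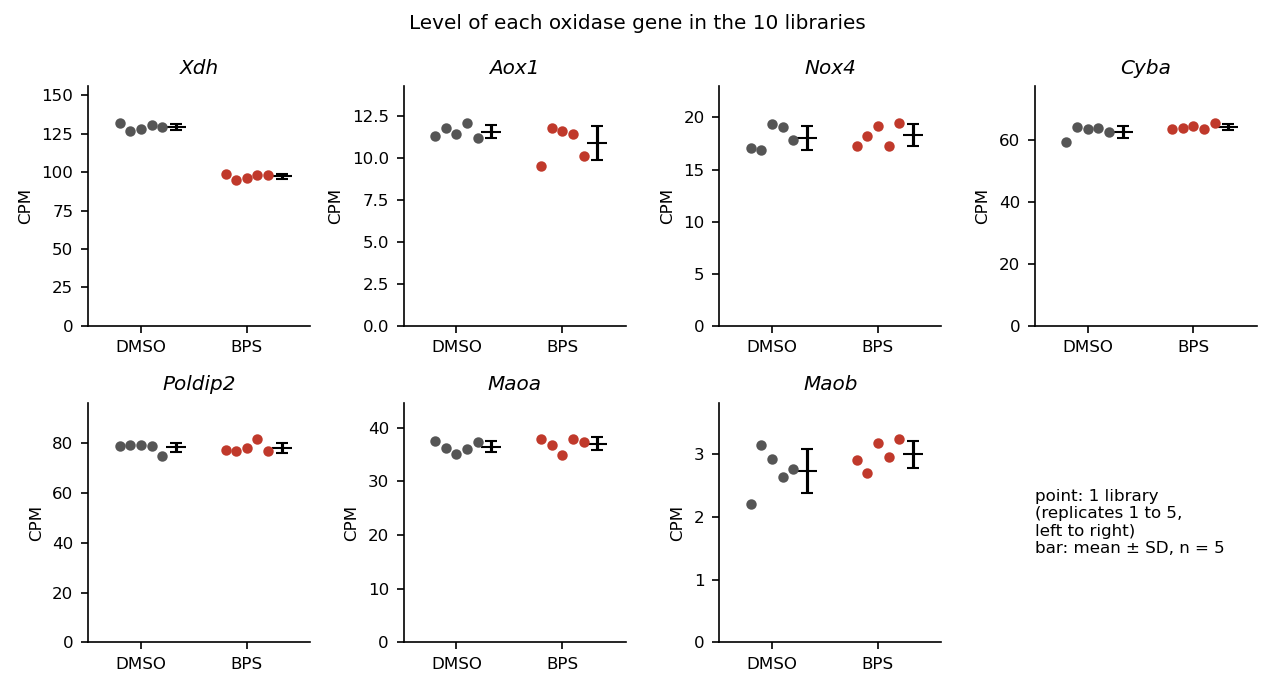
Level of each of the 7 genes of oxidases and their partners (CPM, axis from 0) in the 5 DMSO (grey) and 5 BPS (red) libraries. Each point is 1 library, in replicate order, and the bar beside the points is the mean ± SD. Xdh is the gene whose groups are apart, at 126.7 to 132.2 CPM in DMSO and 95.0 to 99.1 CPM in BPS, and the groups of the other 6 genes overlap.

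The 7 markers of mural cells, the contractile cells of vessel walls, were all tested. Their summed level was 70.8 to 77.9 CPM in DMSO and 84.5 to 93.0 CPM in BPS, and all 7 fold changes were positive. Of them, 2 passed the test and 5 did not (28.6% called, against 4.88% of all genes tested): Des, the intermediate filament of muscle, rose from 13.2 to 21 CPM (log2 fold change 0.66, adjusted p = 0.000106), and Cspg4, the NG2 proteoglycan, rose from 39.1 to 43.5 CPM (0.16, adjusted p = 0.0467), both with edgeR (quasi-likelihood, adjusted by Benjamini-Hochberg). The call of Cspg4 was lost without any 1 library other than BPS replicates 1 and 2 (adjusted p from 0.065 to 0.104). It was also lost with all libraries under RLE scaling, library size alone, no filter, limma-voom, the replicate block and exact versions (adjusted p from 0.0502 to 0.0892). Of the 6 mesothelial markers, 2 were tested, and those 2 summed to 9.03 to 11.0 CPM in DMSO and 11.0 to 12.7 CPM in BPS. The defining ones, Msln and Upk3b, were at 0. Krt19, a keratin of that list, rose from 9.34 to 11.2 CPM (edgeR adjusted p = 0.0367), a call lost without any of 6 single libraries (DMSO replicates 1, 3 and 4, BPS replicates 2, 3 and 4; adjusted p from 0.0641 to 0.0884), and also under the replicate block (0.0918), with no filter (0.0536) and with exact versions (0.0744). Wt1, the other one tested, was at 0.849 ± 0.12 and 0.569 ± 0.188 CPM (log2 fold change -0.59, edgeR adjusted p = 0.155). The part of these markers in the level of Xdh was not tested.

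Counts of Xdh were divided between 2 RefSeq transcripts. The curated transcript NM_011723.3 held 82.8% of the counts and the predicted transcript XM_011246381.1 held 17.2%. NM_011723.3 stood at 107.1, 96.9, 103.6, 110.8 and 111.8 CPM in DMSO and at 81.5, 81.0, 78.9, 85.7 and 81.9 CPM in BPS. The BPS libraries were all below the DMSO libraries for this transcript, with a mean of 106.0 ± 6.07 CPM under DMSO and 81.8 ± 2.49 CPM under BPS (SD, n = 5 each), a change of -22.9%. XM_011246381.1 changed by -33.5%, from 23.3 ± 4.87 to 15.5 ± 2.12 CPM, but its highest BPS library (17.6 CPM) passed its lowest DMSO library (17.3 CPM). The share of NM_011723.3 was 82.0 ± 3.93% in DMSO and 84.1 ± 2.14% in BPS, and those ranges overlapped. Both transcripts were thus lower on average in BPS, and the sum of the 2 varied less between replicates than either did alone.

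Aox1 encodes aldehyde oxidase, which oxidises aldehydes and nitrogen heterocycles and releases hydrogen peroxide and superoxide. It was read at 11.3, 11.8, 11.4, 12.1 and 11.2 CPM in DMSO and at 9.5, 11.8, 11.6, 11.4 and 10.1 CPM in BPS. BPS replicates 1 and 5 were the lowest of the 10 libraries, and the other 3 BPS libraries lay inside the DMSO range. The mean was 11.6 ± 0.391 CPM under DMSO and 10.9 ± 1.01 CPM under BPS (SD, n = 5 each). The log2 fold change was -0.09 (SE 0.06), with a 95% interval from -0.23 to 0.05, so the interval of Aox1 did not reach the log2 fold change of its relative Xdh. Without BPS replicate 1, the lowest library, it was -0.043, and without BPS replicate 2 it was -0.119. Its curated transcript NM_009676.2 held 95.6% of its counts. Aox2 and Aox4, the neighbouring aldehyde oxidase genes, had 0 to 2 and 1 to 5 counts per library and were not tested.

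Nox4 encodes the catalytic subunit of an NADPH oxidase that is active without cytosolic activators and releases mainly hydrogen peroxide. Its level was 17.1, 16.9, 19.4, 19.1 and 17.8 CPM in DMSO and 17.3, 18.2, 19.2, 17.3 and 19.5 CPM in BPS. Both groups spread over nearly the same range, with means of 18.1 ± 1.15 and 18.3 ± 1.02 CPM (SD, n = 5 each). The log2 fold change was 0.02 (SE 0.05), with a 95% interval from -0.09 to 0.13, and its sign changed when single libraries were left out, between -0.004 and 0.047.

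Behind the even total of Nox4, the split among its transcripts varied widely between replicates. Of 8 transcripts listed, 6 had counts. NM_015760.5 took 51.1 to 79.2% of the counts of Nox4 in DMSO libraries and 28.5 to 86.3% in BPS libraries. NM_001285835.1 took 10.5 to 44.0% in DMSO and 5.96 to 58.2% in BPS. The ranges of the groups overlapped for both transcripts. The GENCODE annotation assigns NM_015760, NM_001285835 and NM_001285833 to a single transcript. The level of Nox4 is given as the sum of its transcripts, as for every gene here.

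**Figure D2:**
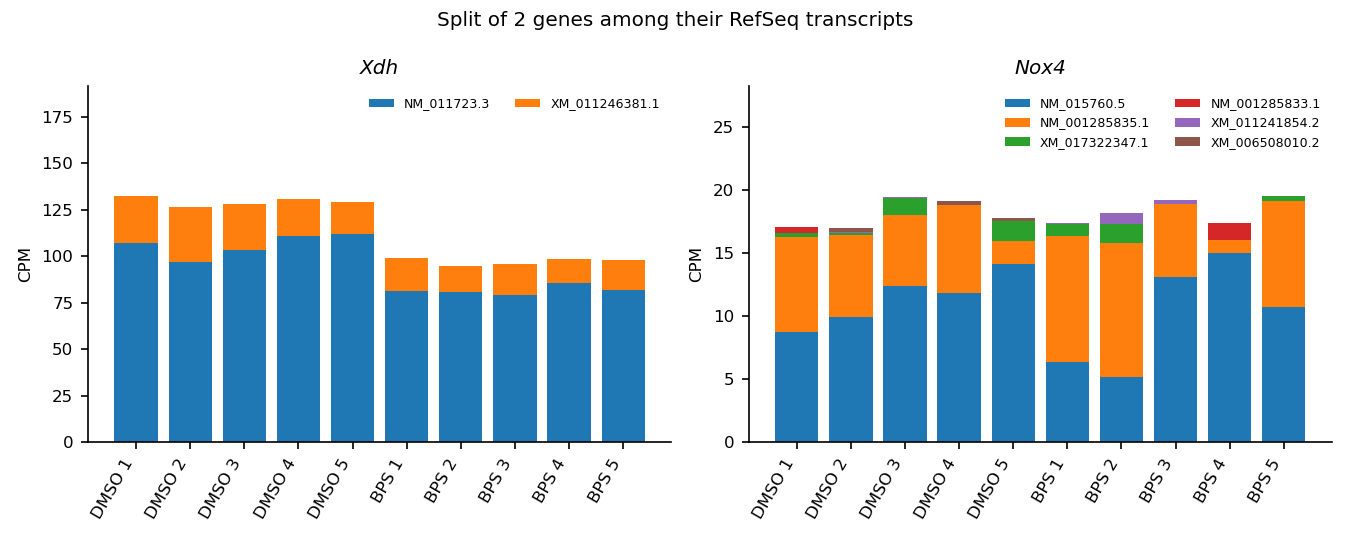
Stacked level (CPM, axis from 0) of the RefSeq transcripts of Xdh (left) and Nox4 (right) in each of the 10 libraries, with 1 colour for each transcript. The Xdh total is lower in the 5 BPS libraries with a similar split (NM_011723.3 at 82.0% and 84.1% on average), whereas the Nox4 total stays between 16.9 and 19.5 CPM while the share of NM_015760.5 runs from 28.5 to 86.3%.

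Cyba encodes p22phox, the membrane partner that Nox4 and its relatives need to be stable and active. It was read at 59.4, 64.2, 63.4, 63.7 and 62.5 CPM in DMSO and at 63.5, 64.0, 64.4, 63.4 and 65.6 CPM in BPS. The BPS libraries lay in the upper part of the DMSO range or just above it, with 2 of 5 above the highest DMSO library. The mean was 62.6 ± 1.91 CPM under DMSO and 64.2 ± 0.898 CPM under BPS (SD, n = 5 each), and the 95% interval of the log2 fold change ran from -0.02 to 0.09.

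Poldip2 encodes a protein that binds p22phox and raises Nox4 activity. Its level was 78.8, 79.2, 79.2, 78.9 and 74.8 CPM in DMSO and 77.1, 76.8, 77.8, 81.5 and 76.7 CPM in BPS. The other DMSO libraries lay between 78.8 and 79.2 CPM, and DMSO replicate 5 and BPS replicate 4 stood apart from their groups. The means were 78.2 ± 1.9 and 78.0 ± 2.03 CPM (SD, n = 5 each), with a 95% interval of the log2 fold change from -0.06 to 0.05. For the Nox4 enzyme, its partner and its activator, the 95% intervals thus all included 0, and the widest of the 3 was that of Nox4.

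Maoa and Maob encode the monoamine oxidases A and B, which prefer serotonin and noradrenaline (A) or phenylethylamine (B). Maoa was read at 37.6, 36.2, 35.2, 36.1 and 37.3 CPM in DMSO and at 37.9, 36.8, 35, 37.9 and 37.4 CPM in BPS. The lowest library of all was BPS replicate 3 and the highest were BPS replicates 1 and 4, so the DMSO range lay inside the BPS range. The means were 36.5 ± 0.974 and 37.0 ± 1.2 CPM (SD, n = 5 each), and the 95% interval of the log2 fold change ran from -0.04 to 0.08.

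Maob had the fewest counts of the 7 genes, 81 to 123 per library. It stood at 2.2, 3.15, 2.92, 2.63 and 2.76 CPM in DMSO and at 2.91, 2.7, 3.17, 2.96 and 3.24 CPM in BPS. In BPS, 2 libraries passed the highest DMSO library, and the other 3 lay within the DMSO range. The means were 2.73 ± 0.352 and 3.0 ± 0.215 CPM (SD, n = 5 each). The log2 fold change was 0.13 (SE 0.10), with a 95% interval from -0.09 to 0.35, the widest of the 7 genes. Any value between those bounds was compatible with these libraries. Without DMSO replicate 1, the lowest library, the log2 fold change was 0.064, and the other leave-outs reached 0.188.

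**Figure D3:**
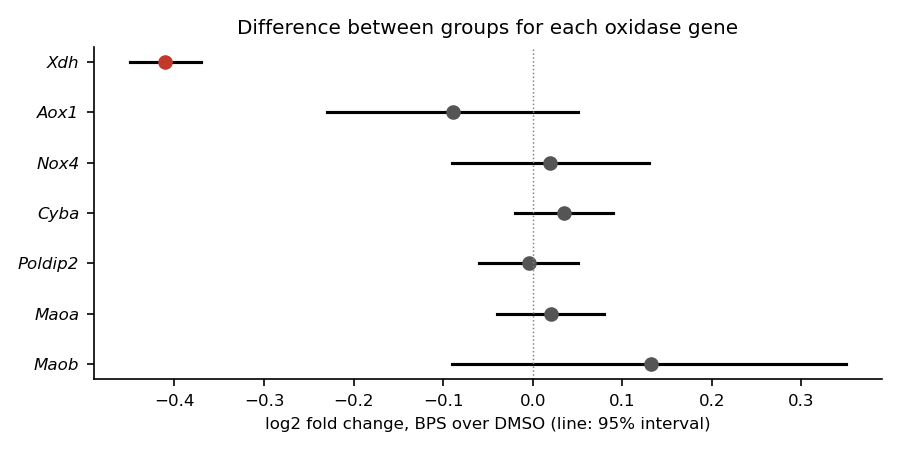
Log2 fold change, BPS over DMSO, of each gene of the oxidases and their partners (points) with its 95% interval (lines). The red point marks the gene whose groups of 5 libraries do not overlap. Xdh lies at -0.41 with an interval from -0.45 to -0.37, and the intervals of the other 6 genes include 0.

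Of the 7 genes, 1 (14.3%), Xdh, had an adjusted p under 0.05, against 4.88% of all genes tested (3.06% higher and 1.82% lower in BPS). The same gene was the 1 whose groups did not overlap, against 6.9% of all genes tested. Of the 7 log2 fold changes, 4 were positive and 3 were negative, with a median of 0.019, beside a median of 0.0 over all genes tested. These counts follow from the choice of the genes and are given for scale alone.

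Levels of different genes were compared per length, as CPM per kilobase of the matched GENCODE transcript. In DMSO, Cyba stood highest at 84.2 ± 2.57 CPM per kilobase, and Poldip2 followed at 38.1 ± 0.927. Xdh stood at 28.1 ± 0.478, Maoa at 8.75 ± 0.234 and Nox4 at 4.81 ± 0.306 CPM per kilobase. Aox1 stood at 2.61 ± 0.0884 and Maob at 1.13 ± 0.146 CPM per kilobase (SD, n = 5 each). No neighbours in this order overlapped in DMSO, and the order was the same in BPS. The p22phox transcript was thus far more abundant per length than that of Nox4, and Xdh more than its relative Aox1. In BPS, Xdh stood at 20.6 to 21.6 CPM per kilobase and Aox1 at 2.15 to 2.66.

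The spread between replicates differed among the genes, and followed their depth in part. The coefficient of variation in DMSO was 1.7% for Xdh, where counting alone gives 1.43%, and 12.9% for Maob, where counting alone gives 9.82%. For Aox1 it was 3.38% in DMSO and 9.26% in BPS, where counting alone gives 4.78 and 5.02%. For Nox4 it was 6.35 and 5.58%, against 3.82 and 3.86% from counting. Xdh was thus measured with the tightest replicates in DMSO, and the precision for Maob was limited in part by its count.

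The genes whose profile over the 10 libraries lay nearest to that of Xdh were Adcy7, Adam33, Gda, Ccbe1 and Rgl1. Nearness was the mean absolute difference in log2(CPM), each gene centred on its own DMSO mean, among 9209 genes with a mean of at least 10 CPM. Since they were picked for that likeness, their values are a description. Adcy7, an adenylyl cyclase, was the nearest, at a mean difference of 0.043, and stood at 97.1 ± 1.71 CPM under DMSO and 75.8 ± 1.99 CPM under BPS (SD, n = 5 each). Adam33, a membrane metalloprotease, stood at 55.2 ± 2.56 and 40.9 ± 2.23 CPM, and Ccbe1, a secreted protein of lymphatic growth, at 19.9 ± 0.866 and 14.3 ± 0.478 CPM. Rgl1, a Ral exchange factor, stood at 115.9 ± 4.74 and 92.4 ± 4.21 CPM. Gda is described next, with the other enzymes of purine degradation.

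**Figure D4:**
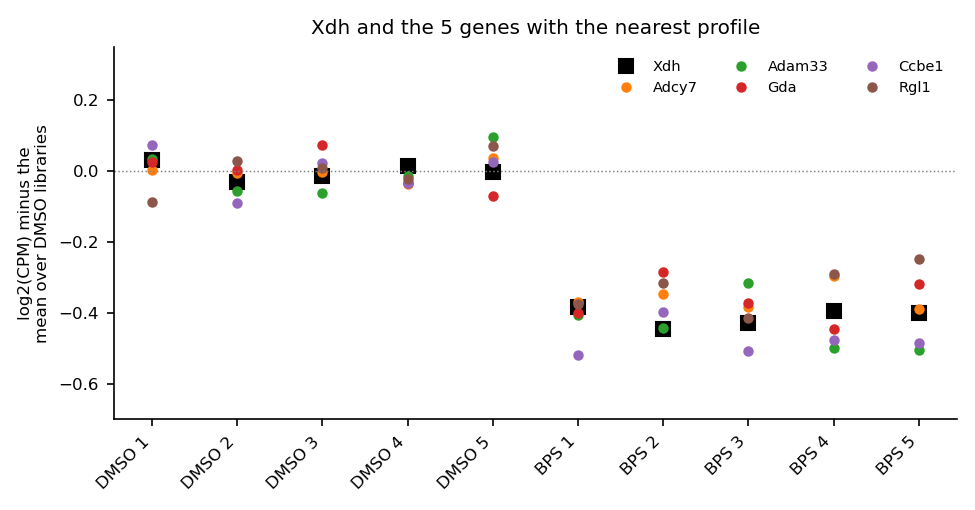
Log2(CPM) of Xdh (black squares) and of Adcy7, Adam33, Gda, Ccbe1 and Rgl1 (coloured circles) in each library, with the mean of the DMSO libraries of each gene set to 0. All 6 genes lie near 0 in DMSO and below 0 in the 5 BPS libraries, and Xdh lies between -0.446 and -0.384 there.

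The enzymes around xanthine oxidoreductase in purine degradation and salvage made a list of 25 genes, of which 18 were tested. In BPS 1 rose, 1 fell and 16 did not pass the test (11.1% called, against 4.88% of all genes tested), and the median log2 fold change was 0.034. Gda, guanine deaminase, converts guanine to xanthine, a substrate of xanthine oxidoreductase. It stood at 18.5, 18.2, 19.1, 17.8 and 17.3 CPM in DMSO and at 13.8, 14.9, 14.1, 13.4 and 14.6 CPM in BPS, with every BPS library below every DMSO library. Gda fell, by a log2 fold change of -0.36 (standard error 0.04, edgeR adjusted p = 0.000534). Its call held without any 1 library. It was lost where only transcripts with an exactly matched accession version were counted (log2 fold change -0.279, adjusted p = 0.691). That match kept 1 of the 3 Gda transcripts, NM_010266.2, which took 22.8 to 58.1% of the Gda counts across libraries.

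Ampd3, an AMP deaminase, rose from 1.08 ± 0.374 to 2.83 ± 1.3 CPM (SD, n = 5 each), by a log2 fold change of 1.38 (standard error 0.36, edgeR adjusted p = 0.0485). The groups overlapped: BPS replicate 3, at 1.06 CPM, lay inside the DMSO range of 0.517 to 1.55 CPM, and the other 4 BPS libraries read 2.08 to 4.08 CPM. The call of Ampd3 was lost when any library but BPS replicate 3 was left out (adjusted p from 0.0557 to 0.109), and under a replicate block (adjusted p = 0.0651) or limma-voom (adjusted p = 0.118). It was also lost with exactly matched versions (edgeR adjusted p = 0.541). The members with the highest CPM did not pass the test. Pnp, purine nucleoside phosphorylase, was at 85.7 and 83.0 CPM, Adk, adenosine kinase, at 85.6 and 91.1 CPM, and Aprt, adenine phosphoribosyltransferase, at 68.9 and 71.1 CPM (DMSO and BPS, adjusted p from 0.115 to 0.411 by edgeR). Urate oxidase, Uox, which acts after xanthine oxidoreductase in the mouse, had 1 to 12 counts per library and was not tested.

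The molybdenum cofactor list held 12 genes that make or carry the cofactor of Xdh and Aox1, and 9 were tested. None of the 9 passed the test by edgeR, against 4.88% of all genes tested, and the median log2 fold change was -0.036. Gphn, gephyrin, which inserts molybdenum, stood at 29.6 to 30.6 CPM in DMSO and 28.5 to 28.9 CPM in BPS (log2 fold change -0.07, adjusted p = 0.0976). Nfs1, the cysteine desulfurase that feeds sulfur to the cofactor and to iron-sulfur clusters, stood at 29.7 to 31.5 and 28.1 to 29.6 CPM (-0.08, adjusted p = 0.092). The groups did not overlap for either gene, the 2 of the 9 for which this held, beside 6.9% of all genes tested. Both passed the test when libraries were scaled by size alone (edgeR adjusted p = 0.0433 and 0.0477). Mocs2, a subunit of molybdopterin synthase, was at 42.4 and 41.4 CPM (adjusted p = 0.614). Mocos, the sulfurase that activates Xdh and Aox1, named here for that role, was at 3.33 ± 0.391 and 3.1 ± 0.38 CPM (adjusted p = 0.672 by edgeR).

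Of the 19 other genes of the NADPH oxidase family and its partners, 13 were tested. None of the 13 passed the test by edgeR, against 4.88% of all genes tested, and their median log2 fold change was 0.021. Those with the highest CPM were proteins with many other tasks: Hsp90b1, an endoplasmic reticulum chaperone, at 2053.4 and 2008.4 CPM, P4hb, protein disulfide isomerase, at 1924.7 and 1913.4 CPM, and Rac1, the small GTPase, at 427.4 and 433.3 CPM in DMSO and BPS. The other catalytic subunits had few counts. Cybb (Nox2) was at 0.401 and 0.482 CPM and Duox1 at 0.864 and 1.27 CPM, while Nox1 had 1 to 9 counts per library, Duox2 had 0 to 1 and Nox3 had 0. Duox1 was closest to the threshold, with an adjusted p of 0.0772 that became 0.0486 without DMSO replicate 2 by edgeR; Cybb, Duox1 and the other such subunits were named after their values were seen.

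The list of other amine and polyamine oxidases held 14 genes, of which 11 were tested and 1 rose (9.09% called, against 4.88% of all genes tested). Loxl4, a lysyl oxidase that crosslinks collagen and elastin and releases hydrogen peroxide, rose from 28.8 ± 0.234 to 32.9 ± 1.02 CPM (SD, n = 5 each). Its log2 fold change was 0.19 (SE 0.03, edgeR adjusted p = 0.00192), and its 5 BPS libraries, from 31.2 to 33.8 CPM, lay above its 5 DMSO libraries, from 28.5 to 29.1 CPM. The relatives with the highest CPM did not pass the test: Lox stood at 4115.7 ± 213.0 and 4459.2 ± 353.0 CPM (adjusted p = 0.253), Loxl2 at 847.8 and 859.4 CPM, and Loxl3 at 736.8 and 725.2 CPM. Lox passed it without BPS replicate 1 (adjusted p = 0.0499 by edgeR). The median log2 fold change of the list was -0.023.

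Aldehydes are both substrates of Aox1 and products of monoamine oxidases, and 21 of 23 genes of aldehyde removal were tested. In BPS 2 rose and none fell (9.52% called, against 4.88% of all genes tested), and the median log2 fold change was 0.016. Aldh1a1, which oxidises retinaldehyde to retinoic acid, stood at 17.3 to 20.1 CPM in DMSO and at 21.9 to 25.5 CPM in BPS, with no overlap (log2 fold change 0.34, SE 0.05, edgeR adjusted p = 0.00342). Its near-identical copy Aldh1a7 was at 0.437 and 0.688 CPM, and reads of the pair could have been divided between them. Aldh1a2, which carries out the same reaction, rose from 58.4 ± 3.7 to 65.9 ± 2.69 CPM (0.17, SE 0.04, edgeR adjusted p = 0.0413), with overlapping groups. The call of Aldh1a2 was kept without DMSO replicate 3 or BPS replicate 1 and lost without any other single library (adjusted p from 0.0618 to 0.0949). It was also lost with exactly matched versions (edgeR adjusted p = 0.0795). The genes of the list with the highest CPM, Akr1a1, Aldh1l2 and Aldh18a1, did not pass the test, with log2 fold changes from 0.03 to 0.06; Aldh18a1 passed without BPS replicate 1 (adjusted p = 0.0391 by edgeR).

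Other oxidases and electron carriers made a list of 36 genes, of which 24 were tested. In BPS 3 rose and 1 fell (16.7% called, against 4.88% of all genes tested), and the median log2 fold change was 0.012. Cyp1b1, a cytochrome P450 of steroid and hydrocarbon metabolism, read 563.1 to 635.7 CPM in DMSO and 342.6 to 404.2 CPM in BPS, and fell by 0.64 on the log2 scale (SE 0.04, edgeR adjusted p = 1.59e-05). Its relatives Cyp1a1 and Cyp1a2 had 0 to 4 and 0 counts per library. Qsox1, a sulfhydryl oxidase of the secretory pathway that makes hydrogen peroxide, rose from 233.2 ± 2.54 to 252.2 ± 5.69 CPM (0.11, SE 0.02, edgeR adjusted p = 0.00401). Ptgs2, the inducible cyclooxygenase, rose from 51.1 ± 5.57 to 65.2 ± 5.2 CPM (0.35, SE 0.07, edgeR adjusted p = 0.0202), and its call was lost without DMSO replicate 4 (adjusted p = 0.0529) or BPS replicate 2 (adjusted p = 0.0524).

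Cyb5r3, a cytochrome b5 reductase, rose from 292.1 ± 3.64 to 306.0 ± 5.76 CPM (SD, n = 5 each; log2 fold change 0.07, SE 0.02, edgeR adjusted p = 0.0404). Its call was kept without DMSO replicate 3 or BPS replicate 5, but was lost without any other single library (adjusted p from 0.067 to 0.0927). It was also lost with library size alone (adjusted p = 0.109), with no filter (0.0937) and under a replicate block (0.0639), all by edgeR. Its sign turned with exactly matched versions, to -0.026 (edgeR adjusted p = 0.896). Ero1a, the oxidase that recharges protein disulfide isomerase and one of the 3 genes of highest CPM in this list, was at 278.2 and 283.4 CPM (adjusted p = 0.81 by edgeR).

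All 19 genes that remove superoxide and hydrogen peroxide, the products of the oxidases, were tested. In BPS 1 rose and 1 fell (10.5% called, against 4.88% of all genes tested), and the median log2 fold change was 0.006. Sod3, the extracellular superoxide dismutase, was lowest in BPS replicate 1, at 18.3 CPM, and its BPS libraries reached 24.0 CPM, below the lowest DMSO library at 26.6 CPM (log2 fold change -0.48, edgeR adjusted p = 0.00685). Gpx1, the cytosolic glutathione peroxidase, lay at 142.1 to 153.2 CPM in DMSO and 158.5 to 169.6 CPM in BPS (0.14, edgeR adjusted p = 0.00741). The members with the highest CPM, Prdx1, Prdx6 and Gpx3, did not pass the test, at 648.2 and 628.9, 290.7 and 302.6, and 295.6 and 296.6 CPM. The groups of Prdx6 did not overlap, and it passed under upper-quartile scaling (adjusted p = 0.0444), with DESeq2 (0.015) and without BPS replicate 5 (0.0469); Prdx1 passed without BPS replicate 1 (0.0474).

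Over the 7 lists together, 115 of 148 genes were tested, and 8 rose and 3 fell. That is 9.57% called, against 4.88% of all genes tested, and the median log2 fold change of the 115 was 0.011 against 0.0 over all genes. The lists were chosen with earlier results of these data known, so these shares are given for scale alone. Among the lists, the genes of other oxidases and electron carriers had the most calls (4), and those of the NADPH oxidase family and of the molybdenum cofactor had none.

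**Figure D5:**
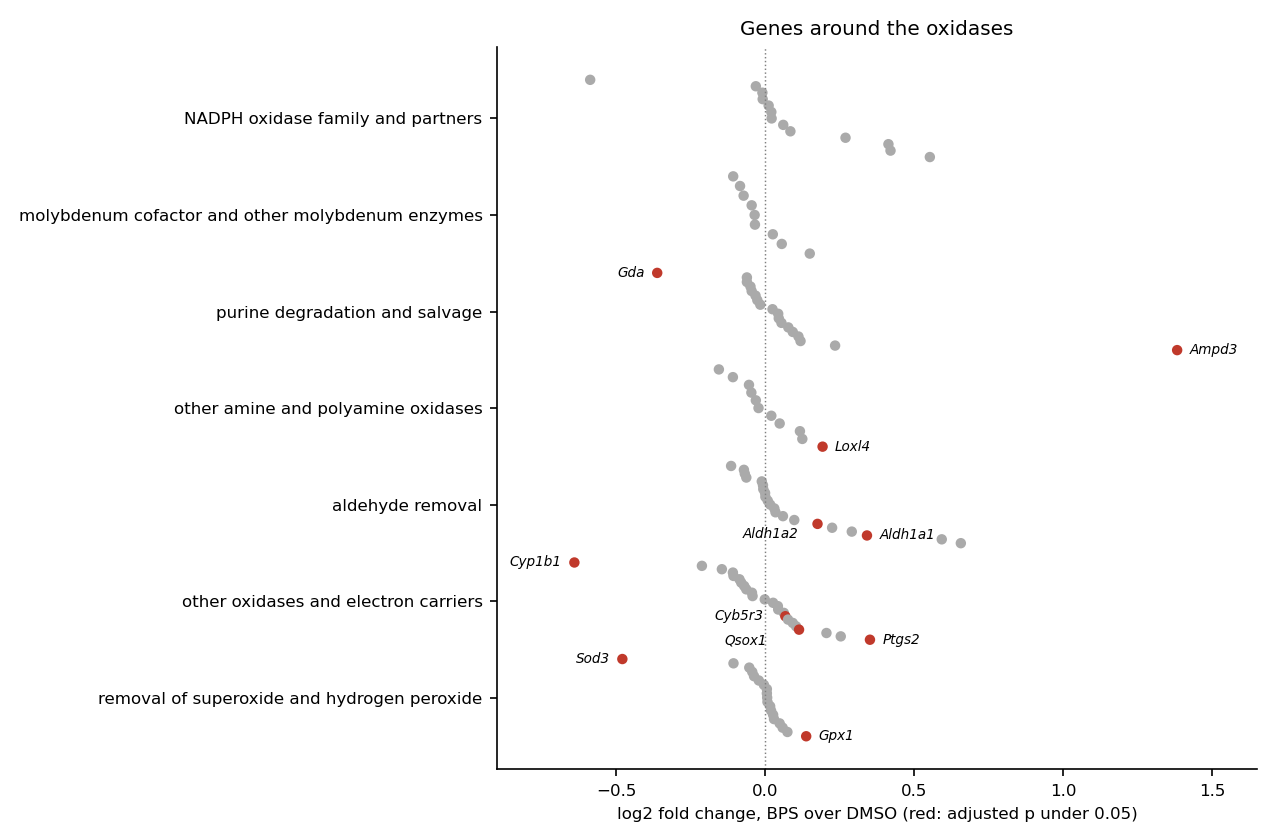
Log2 fold change, BPS over DMSO, of the 115 tested genes of the 7 lists around the oxidases, 1 point for each gene, ordered by value within its list. Red points with names are the 11 genes with an adjusted p under 0.05 by edgeR. They run from Cyp1b1 at -0.64 to Ampd3 at 1.38, and most grey points lie near 0.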

How the data were processed

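RNA of 10 preadipocyte libraries was sequenced after preparation with a directional kit, per the labels' protocols. The authors deposited estimated counts for 107384 RefSeq transcripts, made with kallisto 0.42.4 per the submitters' processing notes. Its index, the build and the strandedness used were not given in the sources used here, so no genome positions are printed. Kallisto divides reads that fit several transcripts among them, which can blur the split between transcripts and between near-identical genes.

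Accessions were matched without version to a RefSeq gene table of GRCm38.p6, used for names, which placed 86722 transcripts (93.1% of counts) in 32903 genes; the other 6.9% of counts stayed out. Counts were summed per gene, rounded, filtered with filterByExpr (14597 genes), scaled by TMM (factors 0.985 to 1.008) and tested with edgeR 4.0.16 (quasi-likelihood, Benjamini-Hochberg over all genes, threshold 0.05) in R 4.3.3. CPM used the TMM-scaled library sizes. Intervals of fold changes have a confidence level of 95%. The number of libraries limits their precision. The p-values set the difference between groups against the spread between these libraries, which may be technical.

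The 7 genes and the gene lists were chosen with earlier results of these data known. The text names the 7 genes, up to 6 genes of each list with an adjusted p under 0.05, the 3 with the highest CPM in each list, and the 5 genes nearest to Xdh. Outside this rule it names cell type markers, Mocos, Uox, Aox2, Aox3, Aox4, Aldh1a7, Cyp1a1, Cyp1a2 and the other NADPH oxidase catalytic subunits. Alternatives were other scalings and filters, DESeq2 1.42.0, limma-voom (limma 3.58.1), a replicate block, exact version matching (72.12% of counts), transcripts not summed, and leaving out each library. Shared sequence was checked against GENCODE transcripts with Python 3.11.15 and Biopython 1.88.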

Additional observations from a re-analysis of the deposited data

Results flagged for a closer look

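In groups of 5 libraries, a value was looked at again where its gap to the nearest other library was above the 95% critical value of Dixon (0.71 of the range of the group). Of 74 groups examined, 6 held such a value, where chance gives 3.7. Poldip2 had 1 in each group: DMSO replicate 5 read 74.8 CPM beside 78.8 to 79.2 CPM in the other DMSO libraries, and BPS replicate 4 read 81.5 CPM beside 76.7 to 77.8 CPM. Hsp90b1 read 2052.1 CPM in BPS replicate 2, beside 1990.8 to 2006.1 CPM in the others. Loxl4 read 31.2 CPM in BPS replicate 1, beside 33.1 to 33.8 CPM. In DMSO replicate 3, Lox read 4486.6 CPM, beside 3955.4 to 4094.1 CPM, and Cyp1b1 read 635.7 CPM, beside 563.1 to 583.3 CPM.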

How the results depend on the processing

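The log2 fold change of Xdh lay between -0.425 and -0.374 under the alternatives run. Those of Aox1, Cyba, Maoa and Maob kept their sign, and those of Nox4 (-0.178 to 0.047) and Poldip2 (-0.02 to 0.002) did not; -0.178 is that of the leading Nox4 transcript alone. The count of genes called, 712 of 14597 tested, was 374 under the replicate block. With exact version matching it was 328 of 11761 genes tested. With transcripts not summed, the unit tested was the transcript, and 126 of 37588 were called. Without 1 library the count of genes ran from 449 to 774. It was lowest without DMSO replicate 2 (449) and without BPS replicates 2 (462), 3 (465) or 4 (462). The count over the 7 lists, 11, was 5 with exact version matching. There Cyp1b1 and Aldh1a1 were not among the genes tested, and Gda, Ampd3, Aldh1a2 and Cyb5r3 lost their call. The count over the lists was 7 to 13 without 1 library, the 7 arising without DMSO replicate 4 or BPS replicate 2. Among named list genes that passed the test, signs turned for Ampd3 (-0.228, transcripts not summed) and Cyb5r3 (-0.026 with exact version matching, -0.021 with transcripts not summed). Among those that did not pass, near 0, they turned for Gpx3 (library size alone and 5 of the leave-outs), Loxl2 (transcripts not summed), Loxl3 (without BPS replicate 5) and Ero1a (without BPS replicate 2). With the leading transcript of each gene alone, Cyp1b1 (edgeR adjusted p = 0.00102) and, at the threshold, Aldh1a1 (0.05) kept their call. The other list genes called in the main fit lost it. Their edgeR adjusted p included 0.0827 for Sod3, 0.1 for Qsox1, 0.196 for Ptgs2, 0.224 for Gpx1, 0.968 for Loxl4 and 0.972 for Gda. Among the markers, Cd34 (0.141), Cspg4 (0.327) and Krt19 (0.827) lost theirs. The causes were not tested. Of 596 values of the 30 named list genes under alternatives, 534 kept their direction and their side of the threshold. With library size alone, 45.9% of the called genes were higher in BPS, against 62.8%.

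The replicate numbers are shared by the groups, but same-numbered libraries correlated at 0.1, 0.004, -0.067, 0.072 and -0.078 in their deviations, and 2 of 5 correlated best with their own number, so the numbers were not taken as pairs. With the replicate block, Xdh stood at -0.411.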
